A study of Homo sapiens with 6 samples.

Results

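CAT, DPP6, TCERG1L, TMEM132C, TMEM132D, CSMD1 and TSPYL5 are 7 genes known for being switched off in some human pluripotent stem cell clones and left on in others. They were taken by symbol from the table of read counts, where they made up 7 of 61155 listed symbols, and all 7 passed the filter on low counts that left 19521 genes to test. The comparison was between undifferentiated H7 human embryonic stem cells (hESCs), an established line, and S6K1-/- hESCs derived from it, with 3 RNA libraries in each group. The S6K1-/- cells lacked ribosomal protein S6 kinase 1, the product of RPS6KB1, after CRISPR/Cas9 cutting with guides against exons 9 and 11, sorting of GFP-positive cells and growth of single colonies. Both groups were grown without feeder cells on Matrigel in TeSR-E8 medium, and neither received any further agent. The sample labels gave all 6 libraries as week 5 and named the S6K1-/- group a knockdown, whereas the methods of the study described knockout cells before differentiation. All 3 S6K1-/- libraries came from clone #1, so that the loss of S6K1 and the history of that clone cannot be told apart. Nothing in the sources stated that the libraries of a group were separate cultures, so the p-values measure only the spread between these libraries, which may be technical.

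In pluripotent cells a promoter rich in CG dinucleotides is usually free of DNA methylation, and methylation of such a promoter goes along with a silent gene. The methylation state is copied at each cell division, so a gene that was methylated in the founding cell of a clone can remain silent in the whole clone. Genes of this kind have been described mostly by comparing induced pluripotent and embryonic stem cell lines. DNA methylation was not measured in these libraries, and the values below are RNA levels.

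Of the 7 genes, CAT rose 5.00-fold in S6K1-/- hESCs, while TSPYL5, CSMD1 and DPP6 fell. TSPYL5 was close to the limit of detection in S6K1-/- hESCs, CSMD1 was at 29.7% of its WT level and DPP6 at 56.7%. TCERG1L, TMEM132C and TMEM132D did not pass the test at an adjusted p of 0.001. Thus 3 of 7 were called lower, where 2.54% of all genes tested were called lower, and 1 of 7 was called higher, where 1.42% were. In either direction 4 of 7 were called, against 3.96% of all genes. One of the 3 lower calls is that of TSPYL5, which passed the filter on low counts only through its WT libraries and whose call was lost with DESeq2. Among the other 6 genes, 2 were called lower and 1 higher. For 5 of 7 members, 3 lower and 2 higher, no S6K1-/- library fell within the WT range, against 30.7% of all genes in either direction, 16.7% lower and 14.0% higher. Without TSPYL5 these were 4 of 6, 2 in each direction. The median log2 fold change of the 7 was -0.67, with 4 below 0 and 3 above, and the median size of the change regardless of sign was 0.82. Without TSPYL5 these medians were -0.31 and 0.74, and over all genes tested -0.00 and 0.11. The 7 genes were chosen with earlier results of these data known. These shares and medians are therefore a description and no test of whether such genes changed more often.

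**Figure D1:**
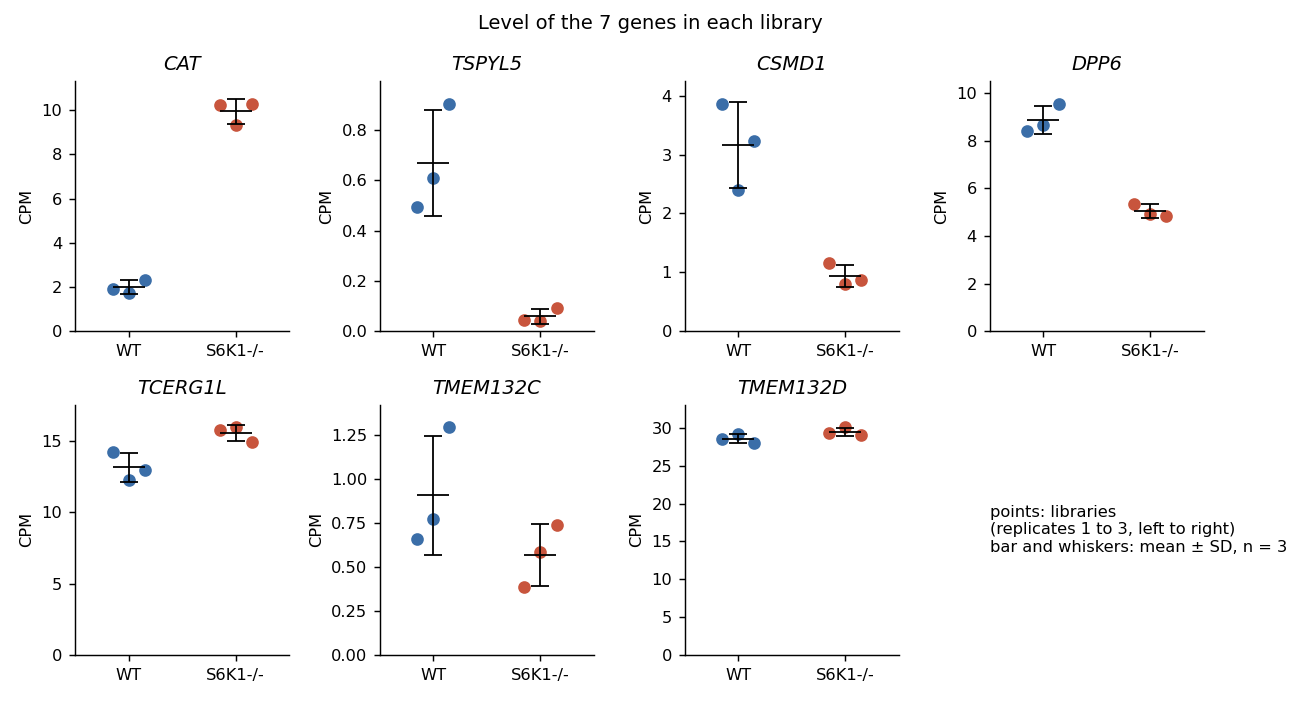
Level of each of the 7 genes in CPM, the counts per 1000000 counts of a library (vertical axes starting at 0), in the 3 WT and 3 S6K1-/- libraries; points are libraries in replicate order, horizontal lines are group means and vertical bars are SDs (n = 3). CAT was higher in every S6K1-/- library and DPP6, CSMD1 and TSPYL5 were lower in every one, while the groups overlapped for TMEM132C and TMEM132D.

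The libraries held between 21896698 and 24473013 counts each, and mitochondrial genes took 8.54% to 9.74% of them. RPS6KB1 (chr17:59893046-59950574) had 831, 791 and 777 counts in WT and 464, 464 and 438 in S6K1-/- hESCs (log2 fold change -0.75, SE 0.0570, adjusted p = 2.52e-07, edgeR quasi-likelihood test). Counts over the whole gene include exons outside the targeted stretch, so they check the genotype only in part. All 11 pluripotency markers were expressed, with 3367 to 35275 counts per library, and 1 of them fell, the DNA methyltransferase DNMT3B (log2 fold change -0.35). The shares called over all genes, for this and the marker lists that follow, were 2.54% lower and 1.42% higher. Their summed level was 7653 to 7826 CPM in WT and 7163 to 7259 CPM in S6K1-/- hESCs. Of 10 fibroblast and mesenchyme markers 6 were tested and 3 fell, the collagen genes COL1A1 (80.2 to 23.2 CPM, log2 fold change -1.79) and COL1A2 (-0.50) and the receptor gene PDGFRB (-1.34). DCN was at 0 in all libraries. The summed level of this list was 629 to 646 CPM against 542 to 563 CPM, most of it from THY1, at 488 CPM in WT and 480 CPM in S6K1-/- hESCs (log2 fold change -0.02). Of 10 neuroectoderm markers 4 were tested, of which PAX6 rose (log2 fold change 0.76) and DCX fell (-0.54, not called by DESeq2), while SOX1 was at 1.29 (adjusted p = 0.0174, edgeR). Their summed level was 447 to 464 CPM against 431 to 447 CPM, most of it from NES, at 442 CPM in WT and 424 CPM in S6K1-/- hESCs. For 10 endoderm and mesoderm markers, of which 5 were tested and HAND1 was at 0, it was 18.6 to 22.6 CPM against 17.3 to 18.6 CPM, and for 10 trophoblast and amnion markers, of which 5 were tested, 24.2 to 25.9 CPM against 20.6 to 22.8 CPM. In the last 2 lists edgeR called 0 genes, with 4 of 5 and 2 of 5 lower and 1 and 0 higher at an unadjusted p under 0.05, which 14.5% of all genes passed as lower and 11.8% as higher, and DESeq2 called 1 lower. In bulk RNA, fewer cells of a type and less RNA per cell cannot be told apart, and the part of these marker differences in the results below was not tested.

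CAT (ENSG00000121691.7, chr11:34438934-34472060, plus strand, 13 exons) encodes catalase, the peroxisomal enzyme that splits hydrogen peroxide into water and oxygen. Its start window of 300 bases, 250 before the start of transcription and 50 after it, held 20 CG dinucleotides, placing it at the 59.7th percentile of 35116 such windows in the human genome. It is shown because CG sites are where promoter methylation acts, and the capitals mark them. The sequence is from RefSeq (GRCh38.p14, chr11:34438684-34438983, plus strand).
CAT start window: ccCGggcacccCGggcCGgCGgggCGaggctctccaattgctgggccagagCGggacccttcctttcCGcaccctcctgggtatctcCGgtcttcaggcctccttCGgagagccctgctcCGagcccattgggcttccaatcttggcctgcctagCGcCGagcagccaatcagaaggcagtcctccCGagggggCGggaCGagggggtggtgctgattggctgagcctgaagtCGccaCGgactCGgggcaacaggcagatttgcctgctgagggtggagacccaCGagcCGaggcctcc
The window held CCAAT on either strand 5 times, a number reached by 0.359% of all windows, and GGGCGG once. The CG observed/expected ratio, the CG number relative to that from the base composition, was 0.577, near the median of 0.579 over all windows.

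CAT had 47, 42 and 54 counts in WT and 240, 223 and 224 in S6K1-/- hESCs. Every S6K1-/- library lay far above every WT library. The mean level was 1.99 ± 0.312 CPM in WT and 9.94 ± 0.545 CPM in S6K1-/- hESCs (SD, n = 3 each). The log2 fold change was 2.32 (SE 0.123, 95% interval 2.06 to 2.58, adjusted p = 4.10e-09, edgeR quasi-likelihood test with Benjamini-Hochberg adjustment over all genes tested). Among the 278 genes called higher CAT had the 26th largest fold change, and it ranked 94th of 19521 by the size of its change in either direction. Within WT its log2 levels had an SD of 0.215, larger than in 84.1% of the 1901 genes of like level (within 0.5 log2 CPM). Within S6K1-/- hESCs the SD was 0.0797, below the median of 0.139 for those genes.

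DPP6 (ENSG00000130226.18, chr7:153748133-154894285, plus strand, 26 exons) encodes a relative of the dipeptidyl peptidases that has no enzyme activity and serves as an accessory subunit of Kv4 potassium channels. RefSeq placed 4 transcript starts in its span, whose windows held 13, 35, 39 and 24 CG dinucleotides from the first start to the last. The window of the last is shown because the canonical transcript of GENCODE 44 begins there, 304265 bases inside the annotated gene, with CG in capitals (GRCh38.p14, chr7:154052148-154052447, plus strand).
DPP6 start window: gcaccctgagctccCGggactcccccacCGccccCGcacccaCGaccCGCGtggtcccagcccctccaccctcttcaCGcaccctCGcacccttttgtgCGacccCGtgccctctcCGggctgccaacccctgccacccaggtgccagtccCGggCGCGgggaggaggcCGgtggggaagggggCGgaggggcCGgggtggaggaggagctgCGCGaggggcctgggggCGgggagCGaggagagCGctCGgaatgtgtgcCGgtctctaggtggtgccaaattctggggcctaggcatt
This window was at the 67.0th percentile for CG number and held GGGCGG 3 times. The first window held CCAAT 4 times, a number reached by 0.991% of windows, and the other 3 held none. The counts cover the whole gene and do not say which start was used.

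DPP6 had 205, 213 and 222 counts in WT and 126, 118 and 105 in S6K1-/- hESCs. The groups were well apart, and both were narrow. Its level averaged 8.88 ± 0.598 CPM in WT and 5.04 ± 0.288 CPM without S6K1 (SD, n = 3 each). The log2 fold change was -0.82 (SE 0.0977, 95% interval -1.02 to -0.61, adjusted p = 3.40e-05, edgeR quasi-likelihood test). It was 251st by size among the 496 genes called lower. Its SD of 0.0949 within WT on the log2 scale was below the median of 0.110 for genes of like level. A lncRNA without a symbol overlaps its exons on the other strand, and whether counting used the strand was not stated.

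TSPYL5 (ENSG00000180543.5, chr8:97273488-97277928, minus strand, 1 exon) encodes a protein with a nucleosome assembly domain that is known to bind the deubiquitinase USP7. It had 12, 15 and 21 counts in WT and 1, 1 and 2 counts in S6K1-/- hESCs. The groups did not overlap, and every S6K1-/- count was under 3, the upper limit that a count of 0 would allow. In sum there were 48 counts against 4, and the ratio of the levels was 11.5 (exact 95% interval 4.21 to 43.9, counting error only). The level was 0.669 ± 0.212 CPM in WT and 0.0587 ± 0.0287 CPM in S6K1-/- hESCs (SD, n = 3 each). TSPYL5 passed the filter on low counts only through its WT libraries, and at the S6K1-/- level in both groups it would have been left out. The edgeR quasi-likelihood test gave an adjusted p of 3.70e-04, with a fitted log2 fold change of -3.41 (SE 0.526) that depends on the prior count at such low counts. The call was lost with DESeq2 (adjusted p = 0.00264) and without any one of S6K1-/- replicates 1, 2 and 3 or WT replicate 3 (adjusted p 0.00205 to 0.00343 in edgeR).

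CSMD1 (ENSG00000183117.20, chr8:2935353-4994972, minus strand, 70 exons) spans 2059620 bases and encodes a large membrane protein built of CUB and sushi domains that inhibits complement. It had 94, 59 and 75 counts in WT and 27, 19 and 19 in S6K1-/- hESCs. The highest S6K1-/- library was below the lowest WT library. The mean was 3.16 ± 0.733 CPM in WT and 0.939 ± 0.187 CPM without S6K1 (SD, n = 3 each). The fall was -1.75 as a log2 fold change (SE 0.220, 95% interval -2.21 to -1.28, adjusted p = 5.58e-05, edgeR quasi-likelihood test). It was 96th by size among the genes called lower. The WT libraries themselves were spread out, with an SD of 0.337 on the log2 scale, larger than in 85.6% of 1916 genes of like level. As for DPP6, a lncRNA without a symbol overlaps its exons on the other strand.

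**Figure D2:**
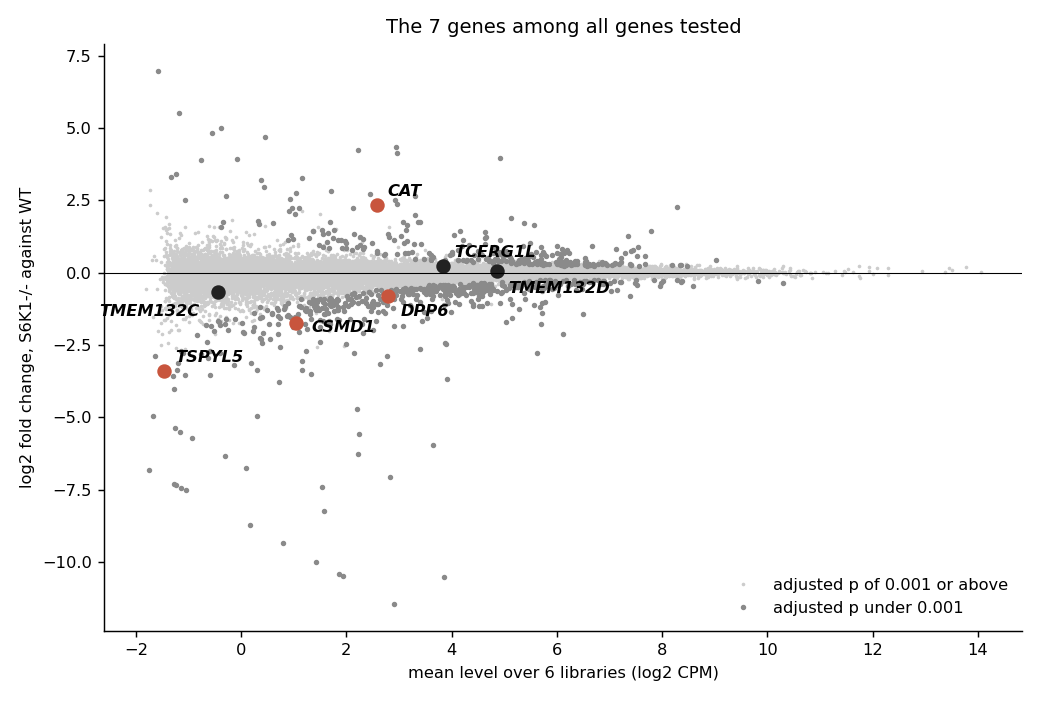
Log2 fold change of S6K1-/- against WT hESCs (vertical) against the mean log2 CPM over 6 libraries (horizontal) for all 19521 genes tested; dark grey points had an adjusted p under 0.001, and large points are the 7 members, red where past that threshold and black where not. CAT lies high among the genes that rose, TSPYL5 at the low end of expression, and TMEM132D and TCERG1L near 0.

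TCERG1L (ENSG00000176769.9, chr10:131092391-131311721, minus strand, 12 exons) is a gene whose function is little known. Its start window was the richest in CG of those found for the members, with 53 CG dinucleotides (99.5th percentile) and 86.0% G+C. It is shown for contrast with CAT, with CG in capitals (RefSeq, GRCh38.p14, chr10:131311672-131311971, minus strand, written 5′ to 3′ of the gene).
TCERG1L start window: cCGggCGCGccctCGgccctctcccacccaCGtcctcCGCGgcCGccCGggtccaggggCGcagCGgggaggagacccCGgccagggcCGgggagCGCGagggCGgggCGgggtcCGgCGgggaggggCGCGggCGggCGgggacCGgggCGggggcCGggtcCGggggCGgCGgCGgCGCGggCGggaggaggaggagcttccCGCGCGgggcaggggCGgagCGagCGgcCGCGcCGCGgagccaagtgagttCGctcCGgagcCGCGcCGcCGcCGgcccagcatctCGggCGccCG
GGGCGG occurred 9 times on both strands together, a number reached by 0.419% of windows, and CCAAT did not occur.

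TCERG1L had 347, 301 and 301 counts in WT and 371, 382 and 325 in S6K1-/- hESCs. In CPM the groups were adjacent without overlap, since the library sizes differed. The level was 13.2 ± 1.02 CPM in WT and 15.6 ± 0.553 CPM in S6K1-/- hESCs (SD, n = 3 each). The log2 fold change of 0.24 (SE 0.0746, 95% interval 0.08 to 0.40, adjusted p = 0.0420, edgeR quasi-likelihood test) missed the threshold of 0.001. At a threshold of 0.05 TCERG1L passed too, which made 2 of 7 members higher, against 5.47% of all genes. TCERG1L missed 0.05 with DESeq2 (adjusted p = 0.166) and, in edgeR, without any one library other than WT replicate 1 (0.0579 to 0.135). The members lower at 0.05 were 3, against 8.31% of all genes.

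TMEM132D (ENSG00000151952.16, chr12:129071725-129904025, minus strand, 9 exons) and TMEM132C (ENSG00000181234.10, chr12:128267170-128707911, plus strand, 9 exons) lie on the same chromosome and encode single-pass membrane proteins known mainly from the nervous system. The start window of TMEM132D held 39 CG dinucleotides, the 91.8th percentile, with an observed/expected ratio of 0.968, and it is shown as that of the member with the highest level (RefSeq, GRCh38.p14, chr12:129903976-129904275, minus strand, CG in capitals).
TMEM132D start window: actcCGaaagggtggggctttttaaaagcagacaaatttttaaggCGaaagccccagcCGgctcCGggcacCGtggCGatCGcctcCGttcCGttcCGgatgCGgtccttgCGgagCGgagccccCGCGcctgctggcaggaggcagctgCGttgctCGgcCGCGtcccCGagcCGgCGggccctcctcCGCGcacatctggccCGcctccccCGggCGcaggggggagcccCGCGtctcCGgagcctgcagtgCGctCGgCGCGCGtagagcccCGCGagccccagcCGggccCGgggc
The window found for TMEM132C, 822 bases inside the annotated gene, held 16 CG dinucleotides. Neither held GGGCGG or CCAAT. Over all windows, GGGCGG was present in 45.0% and CCAAT in 34.6%. TATAAA was in 11.5% of all windows on either strand, and the E-box CACGTG in 7.26%. The cAMP response element TGACGTCA was in 1.85%. Neither TATAAA nor the last 2 motifs were in any of the 8 windows of the 5 members.

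TMEM132D had 695, 717 and 651 counts in WT and 690, 720 and 633 in S6K1-/- hESCs. The groups overlapped, at 28.6 ± 0.571 CPM and 29.5 ± 0.509 CPM (SD, n = 3 each). The log2 fold change was 0.05 (SE 0.0540, adjusted p = 0.643, edgeR quasi-likelihood test), with a 95% interval from -0.07 to 0.16. Its SD of 0.0287 within WT on the log2 scale was smaller than in most genes of like level (13.4th percentile). TMEM132D-AS2, an antisense lncRNA whose exons overlap those of TMEM132D, had 34, 30 and 21 counts in WT and 22, 27 and 23 in S6K1-/- hESCs.

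TMEM132C had 16, 19 and 30 counts in WT and 9, 14 and 16 in S6K1-/- hESCs. The groups overlapped, and WT replicate 3 was the highest. The level was 0.907 ± 0.338 CPM against 0.568 ± 0.176 CPM (SD, n = 3 each). The log2 fold change was -0.67 (SE 0.328, adjusted p = 0.209, edgeR quasi-likelihood test), and its 95% interval from -1.37 to 0.03 covered changes as large as that of DPP6 as well as no change. Without WT replicate 3 it was -0.33, and without S6K1-/- replicate 1 it was -0.45.

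Levels can be compared between the genes only per length of transcript, given here as CPM per kilobase of the union of a gene's exons. In WT the order was TMEM132D (3.84 ± 0.0768), TCERG1L (2.50 ± 0.194), CAT (0.555 ± 0.0872), DPP6 (0.495 ± 0.0333), TMEM132C (0.175 ± 0.0653), CSMD1 (0.169 ± 0.0392) and TSPYL5 (0.151 ± 0.0477; SD, n = 3 each). The level of TMEM132D was near the WT median of 3.78 over 15736 genes with a known length, and the others were below it. CAT and DPP6 differed by less than their spread, as did TMEM132C, CSMD1 and TSPYL5. In S6K1-/- hESCs CAT, at 2.78 ± 0.152, was just below TCERG1L at 2.96 ± 0.105, a difference near the spread of the libraries. TMEM132D was at 3.97 ± 0.0684, DPP6 at 0.281 ± 0.0160, TMEM132C at 0.110 ± 0.0341, CSMD1 at 0.0502 ± 0.010 and TSPYL5 at 0.0132 ± 0.00646 (SD, n = 3 each). On this scale CAT moved from the 16.1th percentile of genes to the 43.0th, CSMD1 from the 4.78th to the 1.12th and TSPYL5 from the 4.11th to the 0.146th. TSPYL5 was in the ranked set only through its WT libraries. Genes at its S6K1-/- level in both groups were filtered out, so its place at the bottom follows from the filter. Per kilobase of the longest transcript instead, DPP6 was above CAT in WT, at 1.84 against 0.868, and CAT was above TCERG1L in S6K1-/- hESCs, at 4.34 against 3.54, so the order of these pairs rests on the length used. The exons averaged 176 bases in CAT, 186 in DPP6, 206 in CSMD1 and 218 in TCERG1L, against 575 in TMEM132C and 682 in TMEM132D. Reads across a splice junction may be missed by the aligner used, so levels of genes with short exons may be too low. This bears on the order of the genes. Whether the loss of such reads differed between the groups for the same gene was not tested.

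**Figure D3:**
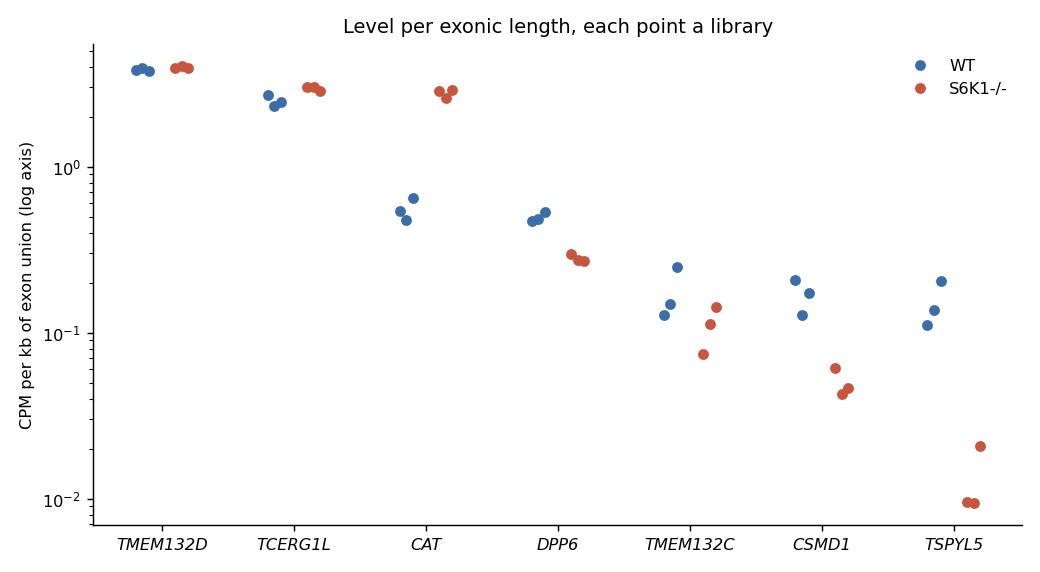
Level of each gene in CPM per kilobase of exon union (log axis) in WT and S6K1-/- hESCs, with each library as a point. The genes spread from 0.151 to 3.84 in WT, CAT was at 2.78 and TCERG1L at 2.96 in S6K1-/- hESCs on this scale, and TSPYL5 was lowest.

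Other genes that have been described as variable between pluripotent clones were read from the same fit. Of 13 found in the table and 9 tested, 2 fell and 1 rose, against 2.54% and 1.42% of all genes, with a median log2 fold change of 0.01. CHCHD2, a mitochondrial intermembrane space protein, had 3137, 3457 and 2871 counts in WT and 1053, 1219 and 1072 in S6K1-/- hESCs. Every S6K1-/- library was far below every WT library, and the log2 fold change was -1.44 (SE 0.0566, adjusted p = 1.12e-10, edgeR quasi-likelihood test). CSRP1, a LIM domain protein, fell by less (log2 fold change -0.43, SE 0.0609), a call lost without S6K1-/- replicate 2 or 3 or WT replicate 1 (adjusted p 0.00135 to 0.00200, edgeR). ABHD12B, a hydrolase-like gene, rose (0.45, SE 0.0744, adjusted p = 6.28e-04 in edgeR), but this call was lost with DESeq2 (adjusted p = 0.00218) and when any one library was left out (0.00192 to 0.00370, edgeR). PTPRT, TAFA5, RBFOX1, FZD10, HHLA1 and C9orf64 did not pass the test, with log2 fold changes from -0.58 in PTPRT to 0.18 in HHLA1. C22orf34, TF, C4orf51 and TRIM4 had too few counts to test.

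Among the families of paralogs described here, that of CSMD1 was the one with other called genes. These genes encode CUB and sushi domain proteins, and 3 of the other 4 tested fell, against 2.54% of all genes, with a median log2 fold change of -0.88. SEZ6 had 74, 71 and 74 counts in WT and 19, 30 and 23 in S6K1-/- hESCs (log2 fold change -1.54, SE 0.184). SEZ6L had 77, 114 and 70 counts against 25, 37 and 30 (-1.44, SE 0.207). In both genes the groups were well apart. SEZ6L2 fell by little (-0.33, SE 0.0453), and CSMD2, at 743, 579 and 633 counts against 656, 656 and 544, was at -0.02. The calls of SEZ6L and SEZ6L2 were lost without S6K1-/- replicate 1 or 3 (adjusted p 0.00147 to 0.00169, edgeR), which left 1 of the 3, and that of SEZ6L2 also without WT replicate 1 (0.00107). CSMD3 had 2, 0 and 0 counts in WT and 0, 0 and 1 in S6K1-/- hESCs.

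None of the other TMEM132 genes passed (0 of 3 in edgeR and in DESeq2, with 2 higher at an unadjusted p under 0.05, against 11.8% of all genes). TMEM132A had a log2 fold change of 0.22 (adjusted p = 0.00533), TMEM132B of 0.18 (adjusted p = 0.0246) and TMEM132E of -0.26 (adjusted p = 0.571, edgeR quasi-likelihood test). That of TMEM132E ranged from -0.46 without S6K1-/- replicate 1 to -0.03 without WT replicate 2. In the group of dipeptidyl peptidases, Kv4 channels and their partners, 0 of 14 passed in either tool, with 5 lower and 1 higher at an unadjusted p under 0.05, against 14.5% and 11.8% of all genes, and the median was -0.10. DPP10, the other Kv4 accessory subunit of this kind, had 214, 222 and 201 counts in WT and 208, 196 and 210 in S6K1-/- hESCs, and the groups overlapped (log2 fold change 0.01). The channel gene KCND2 was at -0.12 and the active peptidase gene DPP4 at -0.40 (adjusted p = 0.0242, edgeR). Among genes of the TSPYL and nucleosome assembly protein family, 0 of 10 passed in either tool and 0 had an unadjusted p under 0.05. TSPYL1, TSPYL2 and TSPYL4 had log2 fold changes of -0.04, 0.05 and -0.03.

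Catalase acts beside other enzymes that remove hydrogen peroxide and superoxide, and of the 15 others tested 1 rose and 1 fell, against 1.42% and 2.54% of all genes, with a median log2 fold change of -0.04. PRDX4, the peroxiredoxin of the endoplasmic reticulum, had 1625, 1836 and 1627 counts in WT and 2953, 3028 and 3202 in S6K1-/- hESCs. The groups were far apart (log2 fold change 0.92, SE 0.0602, adjusted p = 4.70e-08, edgeR quasi-likelihood test). GPX3, the secreted glutathione peroxidase, fell (-0.49, SE 0.0713), a call lost without S6K1-/- replicate 2 or 3 or WT replicate 3 (adjusted p 0.00109 to 0.00290, edgeR). Of 35 other peroxisome genes tested, 1 rose and 1 fell, against 1.42% and 2.54% of all genes, with a median of -0.02. At an unadjusted p under 0.05 in edgeR, 6 were lower and 4 higher, against 14.5% and 11.8% of all genes. PXMP4, a peroxisomal membrane protein, rose (0.90, SE 0.131), though not without S6K1-/- replicate 3 or WT replicate 1 (adjusted p 0.00140 and 0.00130, edgeR), and PIPOX, the peroxisomal sarcosine and pipecolate oxidase, fell (-0.47, SE 0.0600). The other genes of peroxisome biogenesis and oxidation in the list did not pass.

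**Figure D4:**
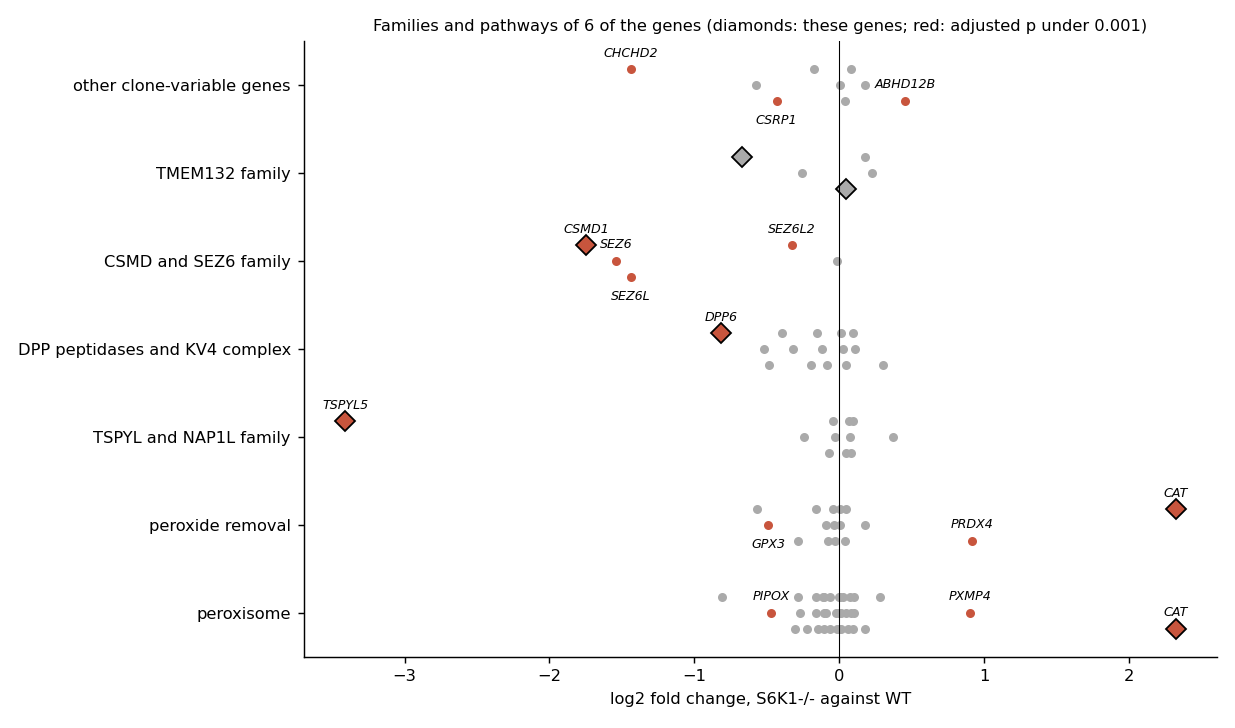
Log2 fold change of S6K1-/- against WT hESCs for the genes tested in each list, 1 row per list with points set apart vertically only for legibility; diamonds are members (TCERG1L is not shown), circles the other genes, and coloured symbols had an adjusted p under 0.001. CSMD1 moved down beside SEZ6 and SEZ6L, whereas CAT stood apart from the other peroxide and peroxisome genes, and TSPYL5 from the others of its family. DPP6 was the lowest in its list, with KCNIP1 next at -0.52.

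Genes beside the members on the chromosome were read to see whether whole regions moved. Within 1 Mb of a member's start, counting start to start, 30 protein-coding genes were tested, of which edgeR called 2 lower and 0 higher, against 2.54% and 1.42% of all genes. At an unadjusted p under 0.05, 8 were lower and 1 was higher, against 14.5% and 11.8% of all genes. DESeq2 called 1 lower and 0 higher. The median log2 fold change of the 30 was -0.02, with 17 below 0. The tested genes nearest to CAT on either side were ABTB2 at 80.9 kb and PDHX at 477 kb, with log2 fold changes of 0.02 and -0.01. CD44, the hyaluronan receptor at 700 kb from CAT, moved the other way, from 241, 240 and 216 counts in WT to 81, 84 and 86 in S6K1-/- hESCs, with no overlap (log2 fold change -1.41, SE 0.0998, adjusted p = 1.06e-07, edgeR quasi-likelihood test).

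Beside TSPYL5, CPQ at 633 kb was at -0.49 with 16, 23 and 24 counts against 19, 8 and 16, which overlapped (-0.17 without S6K1-/- replicate 2), and MTDH at 366 kb was at -0.06. MATN2, a matrilin at 591 kb from TSPYL5, fell just past the threshold (-0.43, SE 0.0744, adjusted p = 9.91e-04, edgeR), but not with DESeq2 (adjusted p = 0.00490) or when any one library was left out (0.00198 to 0.00702, edgeR), and its span overlaps that of RPL30. DPP6 had 1 tested neighbour within 1 Mb, ACTR3B (-0.31, adjusted p = 0.00250, edgeR), and PAXIP1 on its other side was at 0.20 (adjusted p = 0.0118, edgeR). CSMD1 had none within 1 Mb, and the nearest tested genes on either side, ERICH1 and MCPH1, were at 0.13 and 0.07. Next to TCERG1L, GLRX3 was at 0.05 and PPP2R2D at 0.07. SLC15A4, between TMEM132C and TMEM132D, was at 0.00, GLT1D1, also between them, at -0.19, and FZD10, beyond TMEM132D, at 0.04. The median log2 fold change over all tested genes of the 5 chromosomes concerned was between -0.02 and 0.01.

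**Figure D5:**
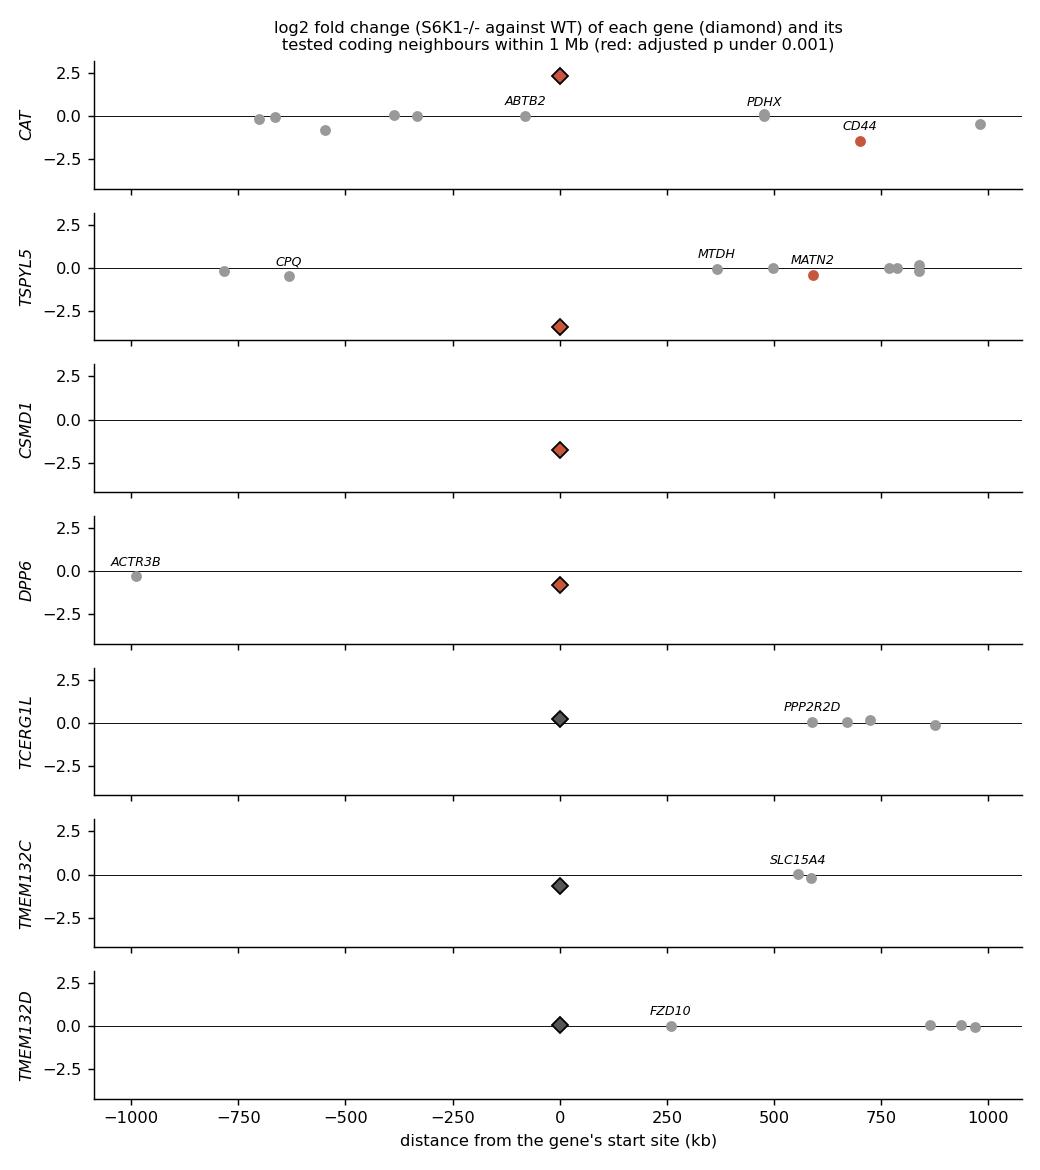
Log2 fold change of tested protein-coding neighbours within 1 Mb of each member's start (horizontal axis, distance from that start in kb), with the member itself at 0. Around CAT and TSPYL5 most neighbours lie near 0, CD44 is the neighbour with the largest change, and CSMD1 has no tested neighbour in the window.

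The genes whose levels followed each called member most closely over the 6 libraries were found by the Euclidean distance between log2 levels taken relative to the WT mean, among genes of like mean level. For CAT these were CTCFL, a CTCF paralog usually confined to the germ line (distance 0.336; 40, 34 and 35 counts in WT and 175, 155 and 166 in S6K1-/- hESCs), and FRG1CP, a copy of FRG1 whose reads may be shared with other copies (0.625; 65, 64 and 65 against 410, 381 and 382). Their log2 fold changes were 2.24 and 2.66, and both lie on chromosome 20. For DPP6 they were LINC01356 (0.142; log2 fold change -0.76) and CDHR1, a photoreceptor cadherin (0.152; -0.77). For CSMD1 they were MYH2, a skeletal myosin heavy chain (0.529; -1.48), and RIPOR2 (0.531; -1.69). For TSPYL5, SLC7A14 was among them (0.749; 27, 28 and 28 counts against 2, 5 and 5; -2.69). These were picked for their likeness from 1158 to 4057 genes, so their likeness is a description and was not tested. The call of MYH2 was lost without S6K1-/- replicate 2 or 3 or WT replicate 1 or 3 (adjusted p 0.00191 to 0.00328, edgeR).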

How the data were processed

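Polyadenylated RNA of H7 hESCs was sequenced in 3 WT and 3 S6K1-/- libraries. Per the labels and methods, the authors trimmed reads with Trim Galore 0.6.5, aligned them to GRCh38 with Bowtie2 2.4.5 and counted them per gene symbol with featureCounts. The annotation release and the strand setting were not given in the sources used here. The deposited values were raw read counts. The authors' own comparison, with fold changes and p-values, was not used. The members and the gene lists were chosen with earlier results of these data known.

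Counts were filtered with filterByExpr, scaled by TMM and fitted across all genes with the edgeR 4.0.16 quasi-likelihood test (genotype only), with Benjamini-Hochberg adjustment and the study's threshold of 0.001. CPM values used TMM-scaled library sizes. Log2 levels used a prior count of 2. Named were all members, RPS6KB1, paralogs, up to 4 called genes per list, nearest and called neighbours, and the genes most alike; PTPRT, HHLA1, KCND2, GLT1D1, HAND1, DCN, PAX6, DCX, SOX1, NES, COL1A1, COL1A2, PDGFRB, THY1, C22orf34, TF, C4orf51, TRIM4, RPL30 and other uncalled list genes were named after their values were seen. Some genes that this rule names are not reported here. Positions and lengths came from GENCODE 44 (37105 symbols matched), and start windows from RefSeq, with 5 of 7 members found (not CSMD1 and TSPYL5). On simulated data with a log2 change of 1, 159 of 194 changed genes among 19257 were called and 0 unchanged ones. Counts of members rest on 3 libraries a group, and intervals cover counting error only where so named. Alternatives were DESeq2 1.42.0, its size factors, other filters and thresholds, a replicate block and leaving out each library.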

Additional observations from a re-analysis of the deposited data

How the results depend on the processing

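CAT, CSMD1 and DPP6 kept their direction and stayed past the threshold under all alternatives tried, with log2 fold changes of 2.22 to 2.45, -1.92 to -1.57 and -0.86 to -0.75. TSPYL5 was at -3.52 with DESeq2, where its adjusted p missed the threshold, at -3.82 to -3.14 with single libraries left out, and was not tested with at least 10 counts required in every library. TMEM132C ranged from -0.88 to -0.33 and passed under none. TCERG1L, at 0.24, passed only at 0.05, and not with DESeq2 or without any one library other than WT replicate 1. Leaving TSPYL5 out of the members, chosen after seeing the data, gave 2 lower and 1 higher.

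Same-numbered libraries showed little common deviation (correlations 0.0180, 0.00174 and 0.0316), and not every library correlated best with its own number. Values this near 0 gave no sign of pairing by number but cannot exclude it. With the replicate block 423 genes were lower and 241 higher, no member's call changed, and ABHD12B and MATN2 lost theirs, leaving 0 other clone-variable genes higher and 1 neighbour lower.

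Genes called lower and higher, 496 and 278, became 982 and 591 without a filter, 1622 and 1067 at 0.05, 939 and 534 at 0.01, and 313 to 445 and 175 to 235 with single libraries left out (175 without S6K1-/- replicate 1, 313 without S6K1-/- replicate 3). Members called lower were then 2 to 3, and members called higher became 2 at 0.05. Without a filter, 1 TMEM132 and 1 TSPYL family gene were higher, 2 peroxide genes were higher and 3 peroxisome genes lower. At 0.05, 2 TMEM132, 2 peroxide and 2 peroxisome genes were higher, and 2 of the DPP group, 4 peroxisome genes and 5 neighbours lower. At 0.01, 1 TMEM132 and 2 peroxide genes were higher and 2 peroxisome genes lower. With DESeq2, 0 other clone-variable and 2 peroxide genes were higher and 1 neighbour lower, and 1 neighbour was also left with its size factors or with at least 10 counts in every library. With single libraries left out, lower calls ranged from 1 to 2 in other clone-variable genes (higher 0 to 0), 1 to 3 in the CSMD1 family and 0 to 1 in peroxide genes, higher calls from 0 to 1 in peroxisome genes, and lower neighbours from 1 to 1. The cause of these changes was not tested.

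Uncalled changes near 0 turned sign when single libraries were left out, from -0.0279 to 0.0893 in ABTB2, -0.108 to 0.0866 in CSMD2, -0.0431 to 0.0680 in DPP10, -0.0519 to 0.223 in FZD10, -0.0361 to 0.0261 in PDHX, -0.0383 to 0.0417 in SLC15A4, -0.000391 to 0.112 in TSPYL2 and -0.0702 to 0.00722 in TSPYL4. Per kilobase of the longest transcript, levels in WT and S6K1-/- hESCs were 0.868 and 4.34 for CAT, 1.84 and 1.04 for DPP6, 2.99 and 3.54 for TCERG1L, 4.66 and 4.81 for TMEM132D, and 0.219 and 0.0651 for CSMD1.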
